A study of Mus musculus with 14 samples.

Results

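The Egr and Nr4a transcription factor families were examined in hippocampal RNA-seq of 14 mice collected at postnatal day 15, with 1 library per mouse. The genes are Egr1, Egr2, Egr3, Egr4, Nr4a1, Nr4a2 and Nr4a3, 7 of the 36118 genes in the deposited table, and all 7 were among the 16637 genes that passed the filter on low counts. They were chosen by family, but with their measured levels in room air and hyperoxia wild-type mice known, so those values are given as a description without a test. Wild-type (WT) pups and littermates homozygous for a short CRISPR-derived deletion in an exon of Gsdmd (KO) were kept in room air (RA) or in 85% oxygen (O2, hyperoxia) from day 1 to day 14. Every mouse is labelled C57/BL6, the study's methods give the KO strain as C57BL/6N, and the KO is global rather than confined to a cell type. The groups were WT-RA (n = 4), WT-O2 (n = 4), KO-RA (n = 3) and KO-O2 (n = 3). Gsdmd encodes gasdermin D, the pore-forming protein of pyroptosis, and the study asked whether its loss changes the response of the neonatal brain to hyperoxia.

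Both families are immediate early genes, which neurons switch on within minutes of synaptic activity from factors already present in the cell, without new protein synthesis. Calcium entry through NMDA receptors and voltage-gated channels activates kinases that phosphorylate CREB, which binds the cAMP response element (CRE), and the partners of serum response factor, which binds the CArG box. The Egr genes encode zinc finger proteins that bind a GC-rich site, and in the hippocampus they take part in synaptic plasticity and memory. The Nr4a genes encode orphan nuclear receptors that act without a known ligand and are also linked to memory. Nr4a2, known as Nurr1, is in addition expressed in midbrain dopamine neurons, in deep cortical layers and in the claustrum.

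The DNA upstream of the start sites is shown because the classical inputs to these genes act there. RefSeq windows on GRCm38.p6 were at hand for 5 of the 7 genes, namely Egr2, Egr4, Nr4a1, Nr4a2 and Nr4a3. Each line gives the 250 bases before the start, 5′ to 3′ on the strand of the gene, and capitals mark the CRE core TGACG on either strand and the CArG box. The Egr2 window lies at chr10:67537619-67537868 on the plus strand. It is the third of 5 annotated starts and was picked after its motifs were seen. Egr4 lies at chr6:85513590-85513839 on the minus strand, Nr4a1 at chr15:101266596-101266845 on the plus strand, Nr4a2 at chr2:57124004-57124253 on the minus strand and Nr4a3 at chr4:48045055-48045304 on the plus strand.
Egr2: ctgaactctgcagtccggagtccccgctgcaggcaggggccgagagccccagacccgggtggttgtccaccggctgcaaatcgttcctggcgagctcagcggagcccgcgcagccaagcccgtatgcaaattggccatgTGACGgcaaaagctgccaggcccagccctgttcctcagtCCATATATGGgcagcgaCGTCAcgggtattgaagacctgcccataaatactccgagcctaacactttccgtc
Egr4: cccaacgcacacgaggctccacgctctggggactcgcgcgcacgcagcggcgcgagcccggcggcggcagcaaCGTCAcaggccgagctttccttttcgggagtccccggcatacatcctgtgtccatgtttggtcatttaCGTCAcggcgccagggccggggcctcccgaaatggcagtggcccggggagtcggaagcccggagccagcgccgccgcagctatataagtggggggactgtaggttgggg
Nr4a1: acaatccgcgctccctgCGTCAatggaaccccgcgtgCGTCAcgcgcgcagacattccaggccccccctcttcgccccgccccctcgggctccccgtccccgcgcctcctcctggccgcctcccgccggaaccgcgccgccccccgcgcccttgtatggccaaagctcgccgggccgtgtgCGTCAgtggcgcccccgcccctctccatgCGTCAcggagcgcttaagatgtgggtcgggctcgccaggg
Nr4a2: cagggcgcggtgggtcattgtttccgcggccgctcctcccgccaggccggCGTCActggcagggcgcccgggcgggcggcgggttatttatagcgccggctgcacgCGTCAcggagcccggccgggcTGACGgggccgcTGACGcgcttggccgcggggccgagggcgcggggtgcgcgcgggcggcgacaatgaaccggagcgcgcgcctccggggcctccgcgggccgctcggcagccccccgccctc
Nr4a3: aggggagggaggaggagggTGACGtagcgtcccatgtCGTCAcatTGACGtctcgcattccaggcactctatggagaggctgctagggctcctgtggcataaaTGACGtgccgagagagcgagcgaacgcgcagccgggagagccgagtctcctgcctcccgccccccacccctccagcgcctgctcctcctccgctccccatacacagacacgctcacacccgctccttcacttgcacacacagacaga

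The 3 Nr4a windows each held 4 copies of TGACG, and the Egr4 window and the Egr2 window shown held 2 each. Among all 32851 promoter windows of the same length, 17.8% held at least 1 copy, 3.9% at least 2 and 0.137% at least 4. The full palindrome TGACGTCA, which contains the core, was in 1.55% of all windows and in none of these. The CArG box was in the Egr2 window shown, between its 2 CRE cores, at positions -72 to -63 from the start, and in 1.47% of all windows. Of the other 4 annotated Egr2 starts, 2 held 2 cores and the CArG box, 1 held a CArG box alone, and 1 held neither. The windows of those first 2, from 67537620 and 67537680, overlap the one shown, and their motifs are the same bases. The Egr site GCGNGGGCG was found once each before Nr4a1 (-60 to -52) and Nr4a2 (-74 to -66), and in 4.7% of all windows. The Nr4a monomer site AAAGGTCA was in none of the 5 windows shown and in 1.34% of all. The cores lay between -233 and -36 in Nr4a1, between -200 and -107 in Nr4a2 and between -231 and -143 in Nr4a3. A match describes these letters only.

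The libraries held between 27272270 and 28257496 estimated counts. Gsdmd was counted in every library, at 41 to 63 counts in WT and 22 to 42 counts in KO mice. Which transcripts hold the deletion was not measured. The study reports that KO brains had no measurable Gsdmd transcript by qRT-PCR and no detectable protein by immunostaining. The labels of GSD408 conflict: its title and its column name say hyperoxia, its treatment field says room air, and it was analysed as WT-O2. Mouse numbers run up to GSD408 in WT and from GSD489 in KO, so genotype and number range cannot be told apart. All 12 genes of a hippocampal marker list were counted in each group. Markers of neighbouring regions were counted too and differed between the genotypes, as given with the genotype results.

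Levels are given as CPM, the usual count scaled to library size, here with edgeR's TMM factors, and between genes as CPM per kilobase of exon. In WT-RA mice Egr1, the most studied member, had the highest level per kilobase, at 38.6 ± 7.31 (SD, n = 4). Egr3 followed at 21.3 ± 2.3, then Nr4a2 at 17.1 ± 5.44, Egr4 at 15.6 ± 2.62, Nr4a1 at 14.9 ± 2.29 and Nr4a3 at 14.5 ± 1.66 CPM per kilobase. From Egr3 to Nr4a3, neighbours in that order differed by less than the larger of their SDs. Egr1 stood clear of every other member, and within each WT-RA mouse Egr3 came next after it. Egr2, best known for its part in myelinating Schwann cells, was far below them at 0.992 ± 0.263 CPM per kilobase, with 27 to 120 counts per library over the whole series. The order was different in KO-O2 mice, where Egr3 (27.7 ± 1.57 CPM per kilobase, SD, n = 3) and Nr4a3 (22.6 ± 2.74) came before Egr1 (19.5 ± 2.44).

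Among WT mice, 5 of the 7 genes had log2 fold changes of -0.51 or below after hyperoxia, while Egr3 was nearly level between the groups and Nr4a3 had a slightly higher mean. Egr1 was at 139.8, 187.1, 212.1 and 153.1 CPM in the WT-RA mice (order GSD398, GSD399, GSD400, GSD401, as in all values below), and at 86.8, 109.7, 98.5 and 89 CPM in the WT-O2 mice (order GSD404, GSD405, GSD406, GSD408). Every WT-O2 mouse was below every WT-RA mouse, and the fitted log2 fold change was -0.85 (SE 0.135), or 0.555 times the room air level. Egr4, a family member with largely neuronal expression, was at 27, 33.4, 40.7 and 33 CPM in the WT-RA mice and at 22, 25.6, 25 and 21.2 CPM in the WT-O2 mice. Its groups did not overlap either, though the highest WT-O2 mouse was close to the lowest WT-RA mouse, and its log2 fold change was -0.51 (SE 0.134).

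Egr2 was at 3.13, 4.23, 2.23 and 3.91 CPM in the WT-RA mice and at 1.43, 2.76, 1.81 and 1.79 CPM in the WT-O2 mice. The groups overlapped through WT-RA mouse GSD400 and WT-O2 mouse GSD405, and the log2 fold change was -0.79 (SE 0.253). Egr3, which can bind the same site as Egr1, was at 86.5, 103.9, 100.7 and 83.6 CPM in the WT-RA mice and at 104.5, 95, 92.7 and 79.8 CPM in the WT-O2 mice. The 2 groups covered nearly the same range, and the log2 fold change was -0.0105, with a 95% interval from -0.22 to 0.2. The interval of Egr1, from -1.14 to -0.56, lay wholly below that of Egr3, though the difference between the 2 genes was not itself tested.

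Nr4a1, also called Nur77, was at 52, 59.9, 56.4 and 41.4 CPM in the WT-RA mice and at 35.9, 36.4, 41.3 and 27.1 CPM in the WT-O2 mice. The groups did not overlap, but the highest WT-O2 mouse, GSD406, and the lowest WT-RA mouse, GSD401, were less than 1 CPM apart. The log2 fold change was -0.58 (SE 0.148). Nr4a2 was at 36.7, 82, 83.7 and 75.2 CPM in the WT-RA mice and at 47.6, 37.2, 41.2 and 32.6 CPM in the WT-O2 mice. One WT-RA mouse, GSD398, lay among the hyperoxia mice and the other 3 well above them. The log2 fold change of Nr4a2 was -0.81 (SE 0.208) with all mice and -1.01 without GSD398.

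Nr4a3, also called NOR-1, was at 83.8, 91.5, 97 and 74.1 CPM in the WT-RA mice and at 112.2, 105.1, 87.5 and 72.2 CPM in the WT-O2 mice. The hyperoxia group was the wider and held both the highest and the lowest mouse, and the log2 fold change was 0.12, with an interval from -0.17 to 0.41. A gene was called when the higher group exceeded the lower by at least 25% with p under 0.05 and q under 0.1, q being the p adjusted by Benjamini-Hochberg over the 16637 genes. By that rule edgeR called Egr1 alone of the 7 in WT-O2 vs WT-RA, where 0.643% of all genes were called. The groups did not overlap for 3 of the 7, Egr1, Egr4 and Nr4a1, and for 5.99% of all genes. Nothing is read from these counts, since this contrast helped choose the genes. DESeq2 called 4, adding Egr4, Nr4a1 and Nr4a2, and 299 of all genes, against 107 in edgeR. With GSD408 counted as WT-RA edgeR called 0 of the 7, with Egr1 at -0.67, and 6 of all genes. In whole tissue, fewer cells of a type and less RNA per cell cannot be told apart.

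**Figure D1:**
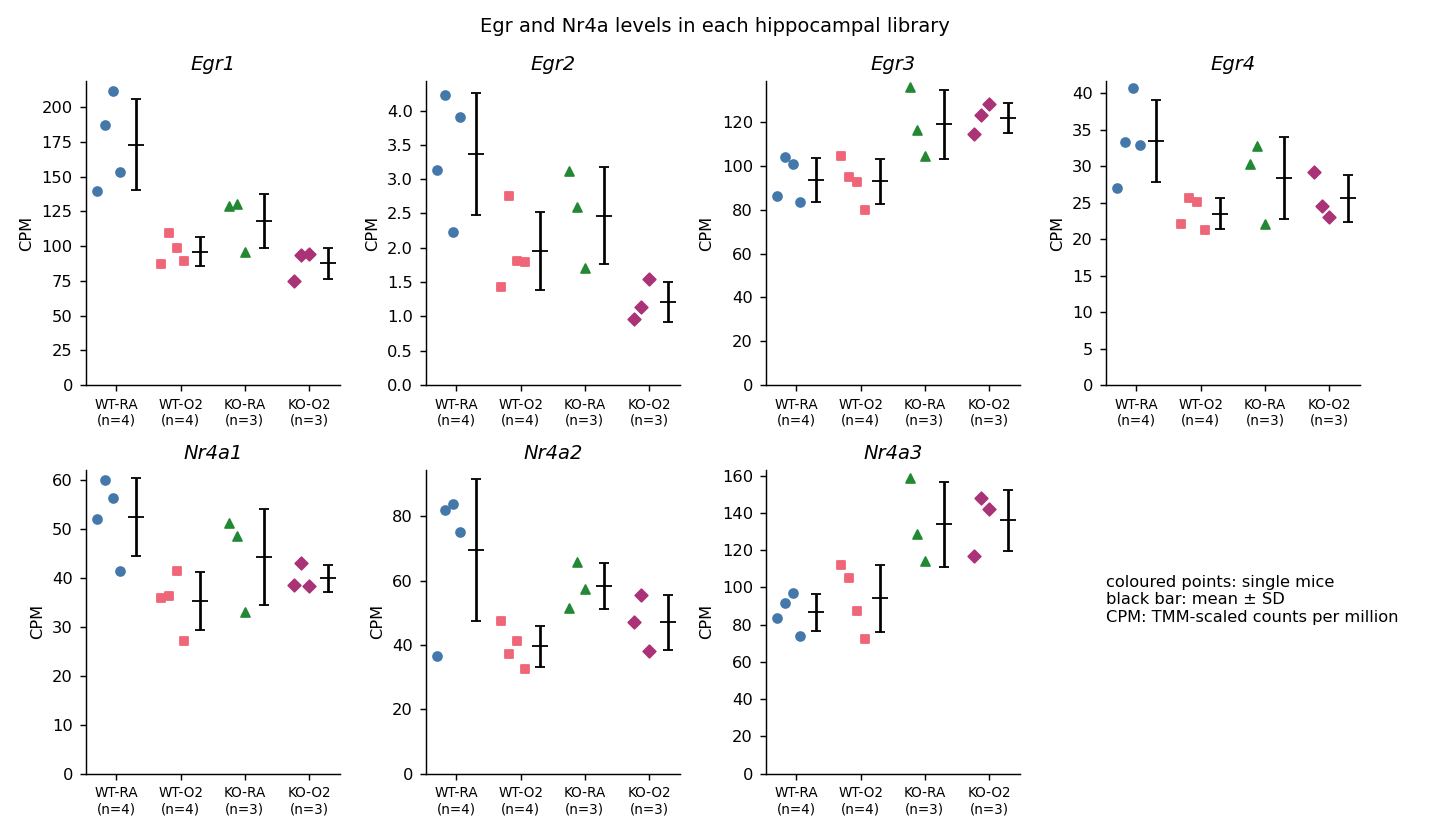
CPM (vertical axis, from 0) of each gene in every mouse by group, with the group mean and SD in black. Egr1 in the 4 WT-O2 mice sits between 86.8 and 109.7, below all 4 WT-RA mice, whereas Egr3 in WT-O2 mice covers the WT-RA range, and both Egr3 and Nr4a3 sit higher in the KO groups.

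KO mice exposed to hyperoxia were compared with KO mice in room air, in animals that had no part in the WT contrast. No gene of the 7 passed the thresholds, and 0.012% of all genes did. An earlier result on immediate early genes in these same mice was known, so their direction is no independent support. Egr1 was at 128.8, 130.2 and 95.5 CPM in the KO-RA mice (order GSD489, GSD490, GSD496), and at 75, 93.3 and 94.4 CPM in the KO-O2 mice (order GSD491, GSD494, GSD495). The groups came within about 1 CPM of each other without overlapping, and the log2 fold change was -0.43 (SE 0.156, edgeR q = 0.933). Egr2 was at 3.12, 2.59 and 1.71 CPM in the KO-RA mice and at 0.967, 1.14 and 1.54 CPM in the KO-O2 mice. The 3 KO-O2 mice were all below the 3 KO-RA mice, and its log2 fold change was -1.02 (SE 0.31, edgeR q = 0.861). These 2 genes were the only members with an unadjusted p below 0.05, as 4.86% of all genes were, and the only members without overlap, as 11.8% of all genes were.

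Egr4 was at 30.3, 32.8 and 22.1 CPM in the KO-RA mice and at 29.2, 24.5 and 23.1 CPM in the KO-O2 mice. Nr4a1 was at 51.3, 48.5 and 33.1 CPM in KO-RA and at 38.5, 43.1 and 38.3 CPM in KO-O2. For both genes KO-RA mouse GSD496 was the lowest of the 6, and the groups overlapped around it. The log2 fold changes were -0.15 for each, with intervals from -0.48 to 0.18 for Egr4 and from -0.51 to 0.21 for Nr4a1. Nr4a2 was at 51.6, 65.8 and 57.4 CPM in KO-RA and at 47.3, 55.5 and 38.1 CPM in KO-O2, and its log2 fold change was -0.31 with an interval from -0.82 to 0.2. For Egr3 the log2 fold change was 0.037 with an interval from -0.2 to 0.28, and for Nr4a3 it was 0.017 with an interval from -0.32 to 0.35. The intervals of Egr4, Nr4a1 and Nr4a2 hold 0. That of Nr4a2 also holds its WT estimate, and those of Egr4 and Nr4a1 end just short of theirs.

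The difference between the hyperoxia response in KO and that in WT is the interaction, which shares its WT part with the contrast that chose the genes and is described without a test. It was 0.42 for Egr1 (95% interval -0.022 to 0.86), 0.37 for Egr4 (-0.071 to 0.8), 0.43 for Nr4a1 (-0.054 to 0.91) and 0.5 for Nr4a2 (-0.18 to 1.17) on the log2 scale. These 4 estimates lean toward a smaller difference in KO mice, and each interval holds 0. Egr2 leaned the other way at -0.23 (-1.08 to 0.62), and Egr3 at 0.047 (-0.27 to 0.36) and Nr4a3 at -0.1 (-0.55 to 0.34) were near 0. Over all genes edgeR called 0, or 0%, with 673 at an unadjusted p below 0.05, and DESeq2 called 0, with 652. A different hyperoxia response in KO mice was therefore not shown for any member.

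**Figure D2:**
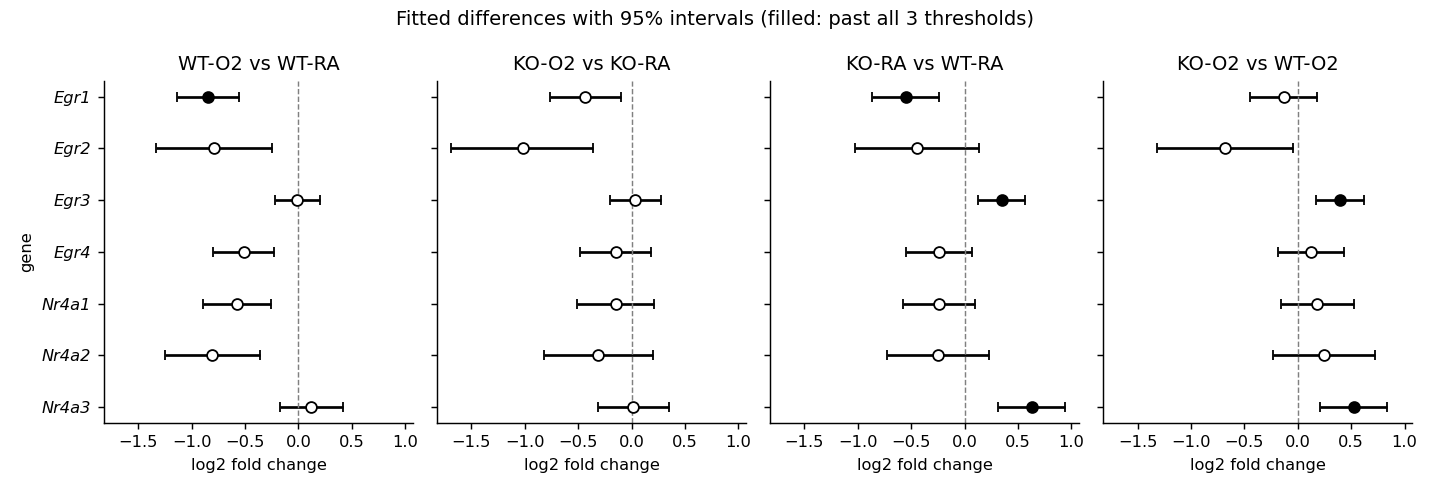
Log2 fold change (horizontal axis) with its 95% interval for each gene (vertical axis) in the 4 comparisons of 2 groups, from the edgeR fit to all 14 libraries. Filled points passed the thresholds on fold, p and q: Egr1 in WT-O2 vs WT-RA, Egr1, Egr3 and Nr4a3 in KO-RA vs WT-RA, and Egr3 and Nr4a3 in KO-O2 vs WT-O2.

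Egr3 and Nr4a3, the members with the smallest hyperoxia differences in WT mice, were higher in KO than in WT mice under both exposures. Both genotype comparisons share WT mice with the contrast that chose the genes. In room air Egr3 was at 136, 116.6 and 104.6 CPM in KO mice against 83.6 to 103.9 in WT mice, and Nr4a3 was at 158.9, 128.6 and 114.3 CPM against 74.1 to 97. Neither gene overlapped between the genotypes, although the lowest KO and highest WT mouse differed by less than 1 CPM for Egr3. The log2 fold changes were 0.35 for Egr3 (SE 0.104, edgeR q = 0.0491) and 0.63 for Nr4a3 (SE 0.147, edgeR q = 0.0138). Egr1 went the other way, with 95.5 to 130.2 CPM in KO-RA mice, all below the 139.8 to 212.1 CPM of WT-RA mice, and a log2 fold change of -0.55 (SE 0.147, edgeR q = 0.028). These 3 of 7 were called, against 10.4% of all genes, and the same 3 had no overlap, against 19.6% of all genes. Egr2, Egr4, Nr4a1 and Nr4a2 had log2 fold changes between -0.45 and -0.24, with q from 0.353 to 0.564 in edgeR. Without WT-RA mouse GSD398, Nr4a2 was at -0.45 and was called lower in KO-RA (edgeR q = 0.0597).

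In hyperoxia Egr3 was at 114.6, 123.5 and 128.2 CPM in KO mice against 79.8 to 104.5 CPM in WT mice, a log2 fold change of 0.39 (SE 0.104, edgeR q = 0.0397). Nr4a3 was at 116.9, 147.8 and 142 CPM against 72.2 to 112.2 CPM, a log2 fold change of 0.53 (SE 0.147, edgeR q = 0.0506). All 3 KO-O2 mice were above all 4 WT-O2 mice for both genes. These 2 of 7 were called, against 6.86% of all genes, and the same 2 had no overlap, against 19% of all genes. Egr1, lower in KO in room air, had a log2 fold change of -0.13 in hyperoxia, with an interval from -0.45 to 0.18. Egr2 had one of -0.68 (SE 0.297, edgeR q = 0.226), and Egr4, Nr4a1 and Nr4a2 ranged from 0.13 to 0.25 (edgeR q from 0.606 to 0.724). Without WT-O2 mouse GSD408, KO-O2 mouse GSD494 or KO-O2 mouse GSD495 edgeR called neither gene, with Egr3 at 0.33, 0.39 and 0.36 and Nr4a3 at 0.42, 0.46 and 0.49. Without WT-O2 mouse GSD406 it called Egr3 only, with Nr4a3 at 0.5, and with GSD408 as WT-RA it called neither.

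In room air the Egr3 call was lost without WT-RA mouse GSD398 (0.32), WT-RA mouse GSD401 (0.3) or KO-RA mouse GSD489 (0.24), and the Egr1 call without KO-RA mouse GSD496 (-0.41) or with GSD408 as WT-RA (-0.4). The call of Nr4a3 in room air held when any single mouse was left out.

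The marker lists of brain regions moved with genotype as well. Of 12 hippocampal markers, 11 were called higher with the KO in room air and 7 in hyperoxia. Their summed level was 963 to 1270 CPM in WT-RA, 1150 to 1470 in WT-O2, 1790 to 2160 in KO-RA and 1870 to 2100 in KO-O2. Of 12 striatal markers, all 12 were called lower in KO under both exposures, with sums of 427 to 979 CPM in WT and 163 to 273 CPM in KO mice. Of 12 thalamic markers 7 were called lower in room air and 6 in hyperoxia, and of 8 oligodendrocyte lineage markers 6 and 4. Of 12 neuronal markers 1 was called higher and 2 lower in each comparison, and their sums were 10000 to 11600 CPM in WT and 11400 to 13600 CPM in KO mice. Of 14 cortical layer and claustrum markers 1 was called higher and 9 lower in room air, and 1 higher and 5 lower in hyperoxia. All genes called were 10.4% and 6.86%. Between the WT groups 2 of these 14 were called lower in WT-O2, against 0.643% of all genes called, with a median log2 fold change of -0.43. Of the hippocampal list 1 was called higher there, and none of the striatal, thalamic, oligodendrocyte or neuronal lists. No defining marker of these lists was at 0 in a whole group.

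With the mean standardized level of the striatal and thalamic lists as covariates, Egr3 turned to -0.33 and Nr4a3 to -0.27 in KO-RA vs WT-RA. In KO-O2 vs WT-O2 they turned to -0.28 and -0.38, and no member was called in either comparison. Over all 16637 genes that fit called 6 in room air and 3 in hyperoxia, against 1738 and 1142 without covariates. With the hippocampal list as covariate, chosen after the data were seen, Egr3 and Nr4a3 turned to -0.41 and -0.39 in room air. In hyperoxia they turned to -0.18 and -0.25, and of all genes that fit called 0 in room air and 4 in hyperoxia. In WT-O2 vs WT-RA the hippocampal covariate moved Egr3 to -0.21 and Nr4a3 to -0.15, neither of them called, and Egr1 to -0.99. These lists themselves separated the genotypes, since striatal and thalamic scores together accounted for 91.5% of the variance of genotype over the 14 libraries and the hippocampal score for 84.5%. The part of regional make-up in the higher Egr3 and Nr4a3 of KO mice was otherwise not tested. Egr1 stayed lower in KO-RA mice in both fits, at -0.94 and -1.15, without passing the thresholds. With the cortical layer and claustrum list as covariate, also chosen after the data were seen, Egr1 was nearer to 0 in KO-RA vs WT-RA, at -0.27. It was not called there either, while that fit called 1820 of all genes. The cortical score accounted for 37% of the variance of genotype.

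Within groups, where genotype and exposure are held constant, members were compared as the deviation of log2 CPM from the group mean over the 14 libraries. Egr3 and Nr4a3 moved together from mouse to mouse, with Pearson's r = 0.92 (exact within-group permutation p = 0.000193, q = 0.00405 over 21 pairs) and Spearman's rho = 0.903 (exact p = 0.000241, q = 0.00506). Without the 2 mice farthest from the median of Egr3, GSD408 and GSD489, r was 0.879. Of the 21 pairs 20 had a positive r, and only this one had a q below 0.1. The next were Egr3 with Nr4a1 (r = 0.787, exact p = 0.0118, q = 0.124) and Nr4a1 with Nr4a3 (r = 0.716, exact p = 0.0193, q = 0.135). Egr2, at its low counts, had an r between -0.184 and 0.374 with the other members. Libraries share sequencing depth and tissue make-up, so such values do not separate the genes from either.

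The same deviations were set against 6 of the 12 marker lists, as the mean deviation of each list's genes, for 42 relations in all. These lists were chosen after the data were seen. The q was adjusted over the 42 relations only and does not account for that choice. Egr3 was higher in mice with more of the hippocampal list (r = 0.806, exact permutation p = 0.000193, q = 0.0081; rho = 0.83, exact p = 0.000627; r = 0.795 without GSD401 and GSD408). It was lower in mice with more of the oligodendrocyte list (r = -0.847, exact p = 0.00207, q = 0.029; rho = -0.886, exact p = 0.00082; r = -0.86 without GSD400 and GSD404). Nr4a3 did likewise, with r = 0.73 for the hippocampal list (exact p = 0.00458, q = 0.0481; rho = 0.732, exact p = 0.0138; r = 0.657 without GSD401 and GSD408). For the oligodendrocyte list its r was -0.856 (exact p = 0.000482, q = 0.0101; rho = -0.851, exact p = 0.000579; r = -0.859 without GSD400 and GSD404). For the striatal list r was -0.827 for Egr3 (exact p = 0.00728, q = 0.0612) and -0.775 for Nr4a3 (exact p = 0.00892, q = 0.0625). Nr4a1 had r = 0.714 with the hippocampal list (exact p = 0.013, q = 0.0778), which was 0.503 without GSD401 and GSD408. These 7 were the relations with q below 0.1, and none of them involved Egr1, Egr2, Egr4 or Nr4a2. By Spearman's rho only 3 had a q below 0.1, those of Egr3 with both the hippocampal and the oligodendrocyte list and of Nr4a3 with the oligodendrocyte list, each at q = 0.0115.

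**Figure D3:**
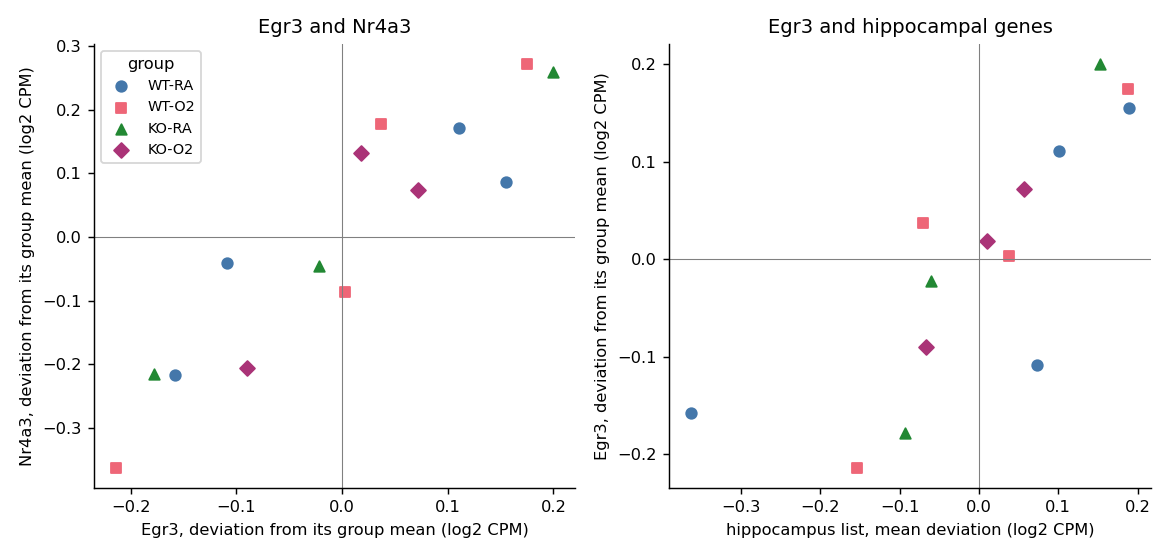
Left, deviation of Nr4a3 (vertical) against that of Egr3 (horizontal) from their group means in log2 CPM, 1 point per mouse. Right, deviation of Egr3 (vertical) against the mean deviation of 12 hippocampal markers (horizontal). In both panels mice of all 4 groups run from lower left to upper right, with r of 0.92 and 0.806.

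WT-RA mouse GSD398, low for Nr4a2, was also the lowest WT-RA mouse for the list of 14 cortical layer and claustrum markers, 2 places where Nr4a2 is known to be expressed. That list summed to 493 CPM in GSD398 and to 695, 883 and 666 CPM in GSD399, GSD400 and GSD401, against 512 to 555 CPM in the WT-O2 mice and 478 to 532 CPM in the KO mice. GSD398 stood apart on other lists too, with 1120 CPM of thalamic markers against 221 to 451 CPM in the other WT-RA mice, and the highest oligodendrocyte sum, 16600 CPM against 6790 to 14400 CPM. With this list as covariate, chosen after the data were seen, the log2 fold change of Nr4a2 in WT-O2 vs WT-RA was -0.39 in place of -0.81. That of Egr4 moved as well, to -0.34 in place of -0.51, while Egr1 was called as before. Within groups Nr4a2 and the list had r = 0.741 (exact permutation p = 0.0728, q = 0.226; rho = 0.319, exact p = 0.332), and r was 0.226 without GSD398 and GSD400, so the relation rests on those 2 mice. With the thalamic list r was -0.716 (exact permutation p = 0.0686, q = 0.226; rho = -0.415, exact p = 0.235), and -0.261 without the same 2 mice. The part of these lists in the Nr4a2 difference was not tested beyond these values. The midbrain dopamine list, the other place of Nr4a2 expression, summed to 38.3 to 64.3 CPM over all mice. Most of that was Aldh1a1 (39.9 CPM in WT-RA, named after its value was seen), which other cells express too, and 1 of the 8 genes was at 0 in WT-O2 and 2 were in KO-RA.

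**Figure D4:**
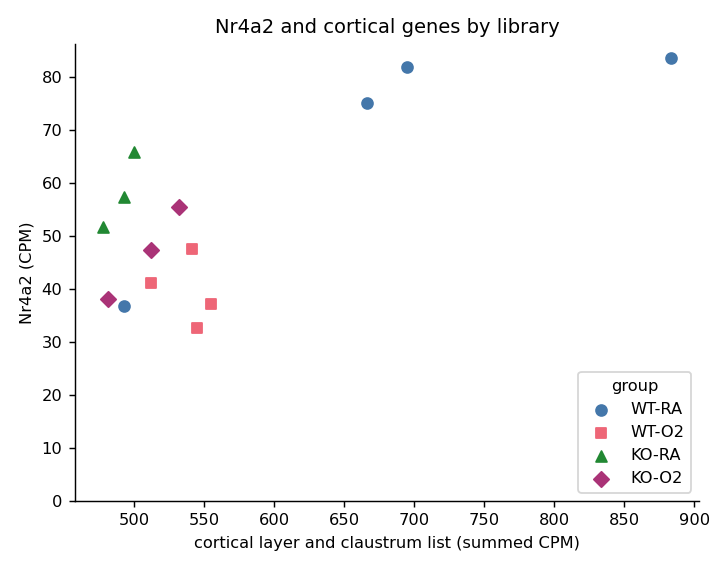
Nr4a2 in CPM (vertical axis, from 0) against the summed CPM of 14 cortical layer and claustrum markers (horizontal axis), 1 point per mouse. The 3 WT-RA mice with Nr4a2 of 75.2 to 83.7 CPM lie to the right, at 666 to 883 CPM, and the fourth, at 36.7 CPM, lies at 493 CPM with the other groups.

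The members varied more between mice of a group than most genes of like level. Compared with the 500 genes nearest in mean level, the within-group SD of log2 CPM was at the 99.2 percentile for Nr4a2 (0.365), 96.4 for Egr1 (0.222), 95.8 for Nr4a3 (0.226) and 95.4 for Nr4a1 (0.248). It was at the 90.8 percentile for Egr4, 83.6 for Egr3 and 78 for Egr2, whose SD of 0.389 includes a larger counting error. Single mice were low for several members at once. KO-RA mouse GSD496 was the lowest of its group for 6 of the 7, all but Nr4a2, and WT-O2 mouse GSD408, whose labels conflict, for 5 of the 7.

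Other immediate early genes, 29 of 30 tested, had a median log2 fold change of -0.14 in WT-O2 vs WT-RA against -0.0058 over all genes. Of the 29, 20 were below 0, against 51.7% of all genes, and 5 were called lower and 1 higher, against 0.643% called. In KO-O2 vs KO-RA their median was 0.072 and 13 were below 0, against 50.6% of all genes. This list was drawn up with results of the same mice known. Fos, which encodes a subunit of the AP-1 factor, was at 17.2 ± 1.9 CPM in WT-RA and 8.08 ± 1.37 in WT-O2 (SD, n = 4), a log2 fold change of -1.09 (SE 0.124), and was the only one called in KO-O2 vs KO-RA as well, at -1.22 (SE 0.148, edgeR q = 0.0121). Arc, a synaptic protein and known Egr target, was at 97.7 ± 16.7 and 43.2 ± 6.85 CPM in WT mice, a log2 fold change of -1.18 (SE 0.151). In KO mice Arc was at 87.4 ± 21.1 and 44.9 ± 4.03 CPM (SD, n = 3), a log2 fold change of -0.96 (SE 0.174, edgeR q = 0.186). Fosb, the activity regulator Npas4 and Ier5 were the others called lower in WT, and Maff was the one called higher, Ier5 and Maff being named after their values were seen. The WT differences of Egr1, Egr2, Egr4, Nr4a1 and Nr4a2 were at -0.85 to -0.51. Fos, Arc and Npas4 (-1.22), the genes furthest below 0 on the list, had larger ones. Fosb (-0.9) was close to that range, Ier5 (-0.6) within it, and the list median of -0.14 nearer to 0, without a test between genes. In KO-RA vs WT-RA 3 were called lower, Fos (-0.58), Npas4 (-1.0) and Dusp1, against 10.4% of all genes called. In KO-O2 vs WT-O2 Fos and Dusp1 were called lower and Nptx2 higher, against 6.86% of all genes called. Dusp1 and Nptx2 were named after their values were seen.

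Of 30 genes that carry activity to Egr and Nr4a promoters, edgeR called none with hyperoxia in WT or in KO mice, and their median log2 fold changes were -0.0089 and 0.049. Between the genotypes it called 2 higher and 4 lower in room air, where 10.4% of all genes were called. In hyperoxia it called 4 higher and 3 lower, where 6.86% of all genes were called. The regional marker lists differed between the genotypes too, and their part in the genotype differences of the pathway genes was not tested. Camk2a, the abundant kinase of hippocampal synapses, was 0.63 and 0.6 higher in KO on the log2 scale. Mapk3, which encodes ERK1, was lower at -0.36 and -0.46, Rps6ka2, a kinase downstream of ERK, at -0.36 and -0.54, and Mef2c, an activity-regulated transcription factor, at -1.63 and -1.14. The 6 Egr partners and corepressors had none called in any comparison. All 6 were below 0 in WT-O2 vs WT-RA, as 51.7% of all genes were, with values from -0.21 to -0.0048 and a median of -0.081. The Egr corepressor Nab1 had the smallest p, at 30.1 ± 0.796 and 26.1 ± 0.887 CPM (log2 fold change -0.21, SE 0.0611, edgeR q = 0.178).

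Of 5 Nr4a partners, edgeR called only Rxrg, a retinoid X receptor, and only in KO-O2 vs WT-O2 (-1.25, SE 0.246, q = 0.0075). Of 10 genes known as Egr targets, Arc alone was called with hyperoxia in WT and none in KO. Bdnf, the neurotrophin, was called higher in KO under both exposures, at 0.59 (SE 0.104, edgeR q = 0.00272) and 0.48 (SE 0.105, edgeR q = 0.0146), and Gabra4, a GABA receptor subunit, lower in room air at -0.47 (SE 0.126, edgeR q = 0.0296). Of 9 genes known as Nr4a targets none was called with hyperoxia in either genotype. In KO-RA vs WT-RA Fosl2 was called higher (0.82, SE 0.129) and the dopamine genes Th (-1.31), Slc6a3 (-1.38) and Ddc (-0.74) lower, and in KO-O2 vs WT-O2 only Ddc was (-0.76). Th was at 2.49 ± 0.631 CPM in WT-RA mice and Slc6a3 at 0.905 ± 0.746, levels at which the spread between mice was wide.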

How the data were processed

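Polyadenylated RNA of 14 hippocampi, 1 library per mouse, was sequenced as read pairs. The authors deposited estimated counts per gene, made with kallisto on mouse build GRCm39 and summed to genes with tximport; versions are not given in the sources used here. Counts were rounded, filtered with filterByExpr (16637 of 36118 genes kept), scaled by TMM and fitted over all libraries by group with the quasi-likelihood model of edgeR 4.0.16 (R 4.3.3). Log2 CPM used a prior count of 2. Calls, at the fold, p and q of the study's methods, use Benjamini-Hochberg adjustment over all genes tested, and intervals are 95%. Correlations within groups used exact permutation of mice within their groups (20736 arrangements). All tests are two-sided. Nothing states litters or sequencing batches, so p-values measure the spread between these mice only. DESeq2 1.42.0, other scalings and filters, the 2 groups alone, stricter thresholds, marker scores as covariates, GSD408 as room air and each mouse left out were alternatives. The calls were tested on simulated data.

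The genes and all lists were chosen with earlier results of these data known. Named are the 7 members, up to 4 genes per pathway list (those called in any comparison, smallest p first, or else the smallest p), and the 10 genes most like the members, of which 1 is not reported here. Gene lengths are from GENCODE M21 and promoters from RefSeq, both on GRCm38, whose coordinates apply to the printed sequences only. Protein sequences and promoters of the other 2 members were not used here.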

Additional observations from a re-analysis of the deposited data

How the results depend on the processing

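Of 833 refits of a member in a comparison, 779 were counted as unchanged. In WT-O2 vs WT-RA and the interaction that meant a move of less than the spread between mice, even where a call was gained or lost. In the other comparisons it meant the same direction and the same side of the thresholds. In WT-O2 vs WT-RA, 4 members were called with DESeq2, without a filter on low counts or with the striatal and thalamic scores as covariates. Over all genes these settings called 299, 144 and 359, against 107 in the main fit. With the hippocampal score 2 members and 128 genes were called, and with GSD408 as WT-RA 0 members and 6 genes. With 1 mouse left out, 1 to 3 members and 13 to 272 genes were called. Egr1 was called in 23 of 24 alternatives, and Egr4, Nr4a1 and Nr4a2, not called in the main fit, in 5, 6 and 4. In KO-RA vs WT-RA, 1 was called at a fold of 1.5 or with the cortical score, and 0 with the striatal and thalamic or the hippocampal score. Over all genes those settings called 942, 1820, 6 and 0, against 1738 in the main fit. In KO-O2 vs WT-O2, 1 was called at q below 0.05, and 0 at a fold of 1.5 or with GSD408 as WT-RA. Over all genes those settings called 791, 607 and 766, against 1142 in the main fit. With the striatal and thalamic or the hippocampal score 0 members were called, and 3 and 4 genes. With 1 mouse left out, 0 to 2 members and 675 to 1335 genes were called. Some directions reversed. With the striatal and thalamic scores, Nr4a3 was -0.025 in KO-O2 vs KO-RA, Egr3 -0.33 and Nr4a3 -0.27 in KO-RA vs WT-RA, and Egr3 -0.28, Egr4 -0.34, Nr4a1 -0.73, Nr4a2 -0.34 and Nr4a3 -0.38 in KO-O2 vs WT-O2. With the hippocampal score, the same were -0.00795, -0.41 and -0.39, and -0.18, -0.093, -0.598, -0.096 and -0.25. With the cortical score, Egr4 was 0.066 and Nr4a2 0.46 in KO-RA vs WT-RA. These scores differ between genotypes, and the cause was not tested. With 1 mouse left out, Egr3 ran from -0.046 to 0.14 and Nr4a3 from -0.083 to 0.16 in KO-O2 vs KO-RA. Over all alternatives, uncalled values that changed sign were Egr3 (-0.21 to 0.1) and Nr4a3 (-0.15 to 0.28) in WT-O2 vs WT-RA, and Egr3 (-0.063 to 0.22), Nr4a2 (-0.031 to 0.71) and Nr4a3 (-0.26 to 0.14) in the interaction. Each alternative scaling moved the median of all genes by less than 0.1. No paired analysis was possible because the labels give no shared replicate numbers. At its counts per library, Egr2 is the member whose values depth limits most.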

Other observations

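The genes that varied most like the members within groups were found by Pearson's r between each of 14460 genes and the mean standardized level of the 7, over 14 libraries, as a description without a test. Among the highest were Fam189a1 (r = 0.932), Lmln (0.92), 3110082I17Rik (0.892), Dusp6 (0.891), Trim9 (0.885), Pex5l (0.876), Sh3rf1 (0.869), Jph4 (0.863) and Rnf145 (0.863). Dusp6, a phosphatase that acts on ERK and is itself an immediate early gene, was the only one of these whose r stayed as high, at 0.903, when group means were not removed. Sh3rf1 was called higher in KO under both exposures (0.45 and 0.46 on the log2 scale), while Pex5l was called higher in KO under hyperoxia only (0.41). None of these was called with hyperoxia in WT or in KO mice.

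Summed over Egr3 and Nr4a3, the level was 158 to 198 CPM in WT-RA, 152 to 217 in WT-O2, 219 to 295 in KO-RA and 231 to 271 in KO-O2 mice. Summed over the other 5 members it was 259 to 395, 172 to 212, 210 to 280 and 191 to 218 CPM in the same order. The first sum thus separated the genotypes, but narrowly, with the highest WT-O2 mouse at 217 CPM and the lowest KO-RA mouse at 219 CPM. The second separated the exposures in WT mice. Each is a restatement of the values above for genes grouped after their values were seen.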
